A study of Homo sapiens with 8 samples.

Results

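Glutamine withdrawal was followed here in A375 melanoma cells whose BRAF had been knocked down. The comparison holds 2 of the 8 arrays of the series, siBRAF cells in glutamine-free medium and siBRAF cells in normal medium, and both were chosen by their treatment labels. A375 is a human melanoma line that carries an activated mutant BRAF. The protocols in the labels say that the cells were transfected with an siRNA against BRAF and kept for 18 h in RPMI1640 with fetal bovine serum and kanamycin, either without glutamine or in the normal form of the medium. The same change of medium in cells with a nontargeting siRNA (siCont), which uses 2 other arrays, is given beside it. Each condition has 1 array, so no difference below has a replicate check or a p-value, and all of them describe pairs of arrays from 1 cell line. BRAF itself was not analysed here, so the knockdown was not checked on its target. The series also holds an array of siATF4 cells in normal medium and 3 arrays of DMSO or vemurafenib, which were not used for differences.

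Glutamine feeds nucleotide, amino acid and glutathione synthesis, and its loss is sensed mainly through the kinase GCN2 and the transcription factor ATF4. Oxidative stress engages NRF2, a transcription factor held in check by KEAP1, which switches on genes for glutathione and thioredoxin production and for quinone and heme breakdown. Interferon-stimulated genes carry elements bound by STAT and IRF factors, and inflammatory chemokine genes carry elements bound by NF-kB.

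Most genes were close to their level in normal medium, and 4 small groups stood away from the rest. Without glutamine, siBRAF cells had higher levels of NRF2 target genes and of targets of the aryl hydrocarbon receptor, and lower levels of interferon-stimulated genes and of NF-kB targets, in nearly all cases by less than 2-fold. Genes of the ATF4 response, of the cell cycle and of protein synthesis had medians near that of all genes.

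Values are the authors' intensities, and differences are glutamine-free minus normal medium on the log2(intensity + 1) scale, which understates the change of dim genes. Differences were counted from 0.32 on, the smallest limit used, and a difference of 0.58 corresponds to 1.5-fold and 1 to 2-fold. Of 19775 genes with a probe set of their own, 13139 reached the median intensity of an array (15.25 in glutamine-free and 15.5 in normal medium) on at least 1 of the 2 siBRAF arrays. Over these genes the median difference was 0.01 and the SD 0.19, with 90% of genes, from the 5th to the 95th percentile, between -0.30 and 0.30. In siCont cells the same genes had a median of -0.06 and an SD of 0.70. Higher by 0.32 or more in glutamine-free medium were 532 genes (4.05%), and 566 were lower by as much (4.31%). At 1.5-fold there were 75 higher and 95 lower, and at 2-fold 6 higher (0.0457%) and 10 lower (0.0761%). In siCont cells 22% of the same genes were higher by 0.32 or more and 29.6% lower, and at 2-fold 5.34% were higher and 7.18% lower.

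**Figure D1:**
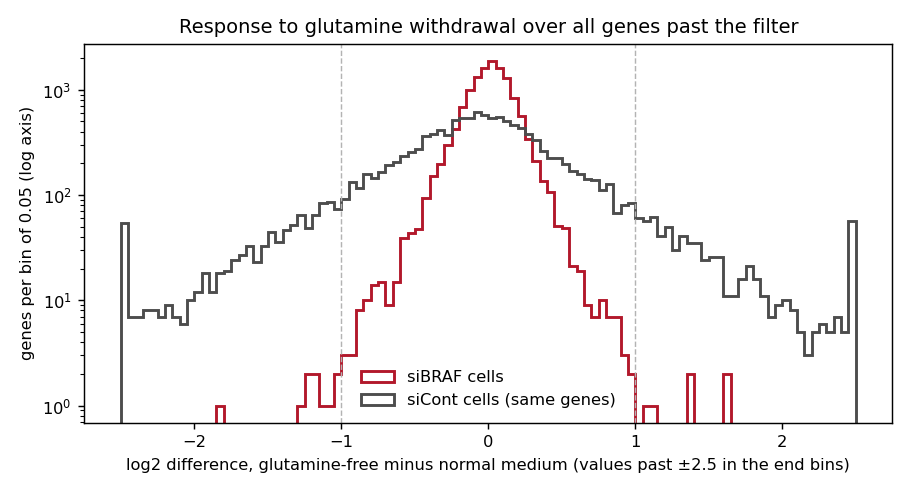
Number of genes (log axis) by their log2 difference between glutamine-free and normal medium in siBRAF cells (red) and in siCont cells (grey), for the same 13139 genes, with dashed lines at 2-fold and more extreme genes gathered in the end bins. The siBRAF distribution is narrow, with an SD of 0.19, and the siCont one broad, with an SD of 0.70.

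The only repeat measurement within the pair is that many genes have several probe sets, which share the same RNA and so show probe-level error alone. Among 6371 genes with at least 2 probe sets past the filter, the pooled SD between probe sets of a gene was 0.16. All probe sets of a gene had the same sign in 45.6% of the genes under 0.32, in 69.2% of those between 0.32 and 0.58 and in 76% of those at 1.5-fold or more. A difference under 0.32 in a single gene is thus within about 2 such SDs. Among genes farther apart the pooled SD was larger, 0.24 for those between 0.32 and 0.58 and 0.32 for those at 1.5-fold or more. The groups below are described over all their measured members. Differences were wider among dim genes: with genes ranked into 5 equal groups by brightness, the SD was 0.26 in the dimmest and 0.14 in the brightest. The median also moved with brightness, at -0.03 in the dimmest group and 0.04 in the brightest. RNA degradation, as read from actin control probes, was alike on both siBRAF arrays: their 3' signal exceeded the 5' signal by 0.16 in glutamine-free and 0.18 in normal medium (log2).

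The labelled cell type was checked on melanocyte lineage genes. The lineage factor genes SOX10 (957 in glutamine-free and 1027 in normal medium) and MITF (567 and 567) were well above the array median in siBRAF cells. The pigment genes PMEL, MLANA, TYR and TYRP1 were at or near the array median or below it, with intensities of 8.28 to 17.7 in glutamine-free and 9.15 to 17.7 in normal medium, and DCT was not analysed here. A summed intensity of 2505 in glutamine-free and 2382 in normal medium was found for 12 keratinocyte and epithelial markers, most of it from the keratin KRT10. For 12 fibroblast and immune markers the sums were 653 and 519 in glutamine-free and normal medium, and LUM, which is also a matrix gene, had the largest share.

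**Figure D2:**
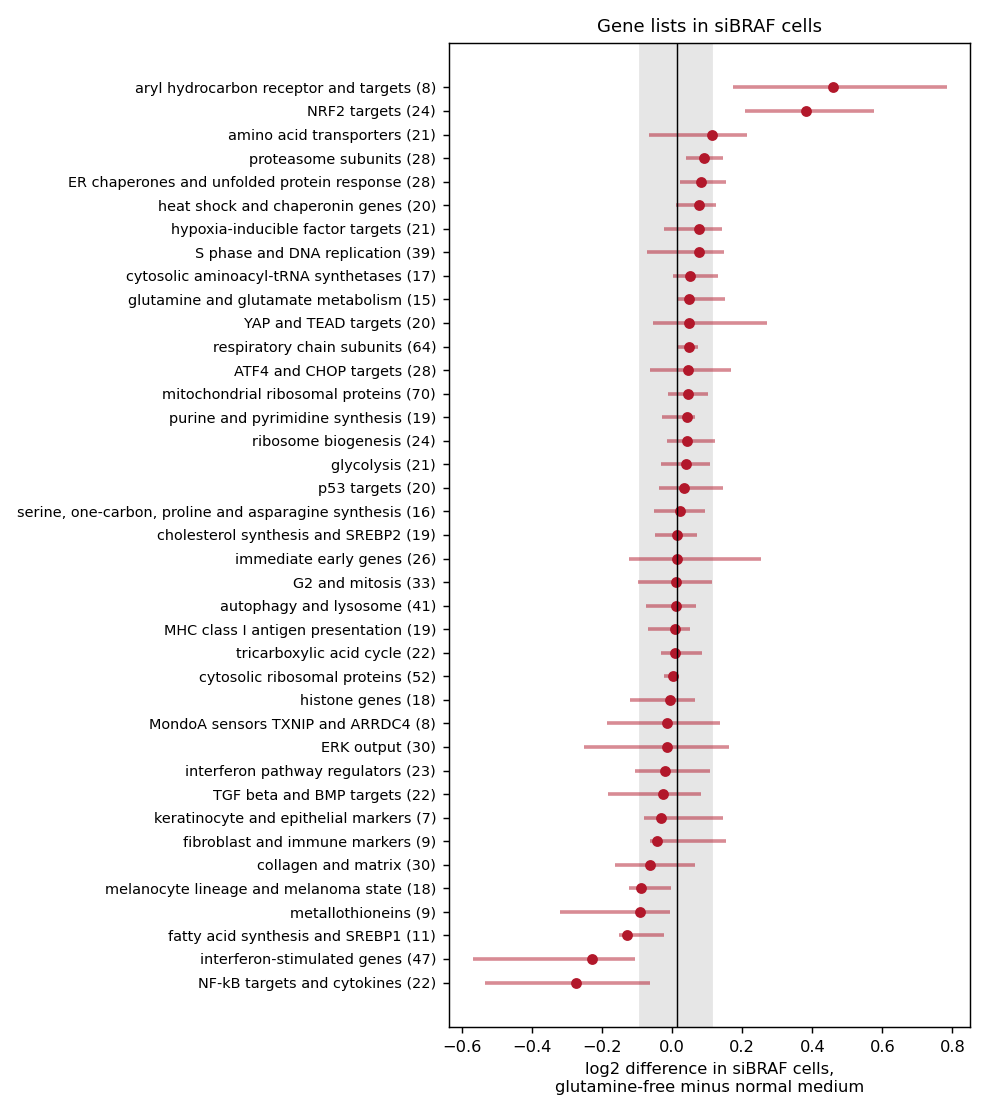
Median log2 difference (point) and 25th to 75th percentile of the members (line) for 39 gene lists in siBRAF cells, glutamine-free minus normal medium, with the number of measured members in brackets. The vertical line and grey band are the median and the 25th to 75th percentile of all 13139 genes. Only the lists of aryl hydrocarbon receptor genes, NRF2 targets, interferon-stimulated genes and NF-kB targets have medians beyond 0.2 on either side.

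Of 39 gene lists, 33 had a median between -0.1 and 0.1. The 3 lists above were aryl hydrocarbon receptor genes (0.46), NRF2 targets (0.38) and amino acid transporters (0.11), and the 3 below were NF-kB targets (-0.28), interferon-stimulated genes (-0.23) and fatty acid synthesis (-0.13). Each of the 4 lists with the medians farthest from 0 has a short promoter element known from textbook examples. Stretches of the promoters of some members are printed here so that the elements can be read beside the values. They are RefSeq sequences of GRCh38.p14, read 5′ to 3′ along the gene, and capitals mark each match of the element on either strand. Only members with a match and a large difference were picked, so an element beside a large value follows from the choice. Members without a match of their list's element included CXCL8 (-0.95), OAS1 (-0.73), XAF1 (-0.81) and the NRF2 target NQO1 (0.80).

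Interferon-stimulated genes were searched for a pair of GAAA with 2 bases of any kind between them (GAAA, NN, GAAA), the core of the interferon-stimulated response element. Shown are the 4 members with a match and the lowest differences: IFI27 at chr14:94110596-94110695, CXCL10 at chr4:76023648-76023747 on the minus strand, IFITM1 at chr11:313989-314088 and IFI44L at chr1:78620330-78620429.
IFI27: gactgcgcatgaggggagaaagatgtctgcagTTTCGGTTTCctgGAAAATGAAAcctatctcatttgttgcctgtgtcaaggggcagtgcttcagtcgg
CXCL10: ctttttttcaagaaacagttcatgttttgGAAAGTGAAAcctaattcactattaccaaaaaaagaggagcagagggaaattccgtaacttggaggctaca
IFITM1: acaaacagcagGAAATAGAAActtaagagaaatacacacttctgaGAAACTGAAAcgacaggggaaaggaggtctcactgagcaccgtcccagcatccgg
IFI44L: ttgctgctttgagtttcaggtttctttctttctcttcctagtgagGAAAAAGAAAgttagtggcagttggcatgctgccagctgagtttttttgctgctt

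NF-kB targets were searched for the NF-kB consensus motif. The stretches are from VCAM1 at chr1:100719635-100719734, CXCL1 at chr4:73869270-73869369 and CXCL2 at chr4:74099218-74099317 on the minus strand. In CXCL1 and CXCL2 the capitals hold 2 matches that overlap, 1 on each strand.
VCAM1: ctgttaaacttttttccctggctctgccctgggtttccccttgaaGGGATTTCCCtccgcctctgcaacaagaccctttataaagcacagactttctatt
CXCL1: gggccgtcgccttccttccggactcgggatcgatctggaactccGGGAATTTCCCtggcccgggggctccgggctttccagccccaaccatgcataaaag
CXCL2: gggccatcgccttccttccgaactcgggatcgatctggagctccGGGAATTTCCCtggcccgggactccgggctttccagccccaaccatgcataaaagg

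Aryl hydrocarbon receptor genes were searched for GCGTG, the core of the xenobiotic response element, and NRF2 targets for TGACNNNGC, the core of the antioxidant response element. The first set is CYP1A1 at chr15:74725534-74725633 on the minus strand and TIPARP at chr3:156674400-156674499. The second is GCLM at chr1:93909411-93909510 on the minus strand and TXNRD1 at chr12:104215725-104215824.
CYP1A1: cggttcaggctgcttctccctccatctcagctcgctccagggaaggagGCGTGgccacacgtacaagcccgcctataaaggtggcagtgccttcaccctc
TIPARP: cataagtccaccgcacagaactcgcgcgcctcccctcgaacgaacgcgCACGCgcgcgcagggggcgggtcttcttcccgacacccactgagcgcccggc
GCLM: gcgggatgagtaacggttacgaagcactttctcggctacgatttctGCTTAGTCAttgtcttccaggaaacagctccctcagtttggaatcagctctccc
TXNRD1: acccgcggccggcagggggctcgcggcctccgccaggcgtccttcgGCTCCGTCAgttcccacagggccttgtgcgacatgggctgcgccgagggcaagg

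The elements differed in how much more often they stood in their own list than in all promoters. Windows of 300 bases, from 250 before to 50 after the most upstream start, were available for 27305 genes. The GAAA pair was in 3.66% of them and in 28 of the 40 interferon-stimulated genes with a window (70%). The NF-kB consensus motif was in 10.8% of all windows and in 8 of 17 NF-kB targets (47.1%). GCGTG was in 36.4% of all windows and in 5 of 7 aryl hydrocarbon receptor genes, and TGACNNNGC in 13.6% and in 4 of 18 NRF2 targets (22.2%). TGACNNNGC was as common in the other lists, in 11 of 40 interferon-stimulated genes (27.5%) and 4 of 17 NF-kB targets (23.5%). GCGTG was also in 10 of 18 NRF2 targets (55.6%), in 10 of 40 interferon-stimulated genes (25%) and in 5 of 17 NF-kB targets (29.4%). Among interferon-stimulated genes the 28 with the pair had a median of -0.36, and 15 of them were lower by 0.32 or more. The 12 without it had a median of -0.22, and 4 were lower. For NF-kB targets the medians were -0.48 with the consensus motif and -0.37 without it, and 5 of 8 with it and 6 of 9 without it were lower. Of these 5, VCAM1 reached the array median in normal medium only, so it could pass the filter only as a lower gene. Without VCAM1 the middle value with the motif was that of TNFAIP3 (-0.34), so the order of the 2 medians rests on VCAM1. The 4 NRF2 targets with TGACNNNGC had a median of 0.70 and the 14 without it 0.30. The 5 receptor genes with GCGTG had a median of 0.78. The 2 without it, ARNT and CYP1A2, had 0.05 and are too few for a comparison. A match describes the letters and not binding, and elements farther away were not searched.

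NRF2 target genes were higher without glutamine in siBRAF cells. All 24 measured members, of 26 listed, had a difference above 0, with a median of 0.38 against 0.01 for all genes, although that of PGD was 0.00054. Higher by 0.32 or more were 14 of the 24 (58.3%, against 4.05% of all genes) and 0 were lower. Across the alternatives of processing tried, 11 to 14 members were higher by as much. At 1.5-fold there were 6 (against 0.57% of all genes), HMOX1, GCLM, TXNRD1, NQO1, SLC7A11 and AKR1B10, and no member reached 2-fold. In siCont cells the same 24 genes had a median of -0.15, with 7 higher by 0.32 or more and 9 lower, where 22% of all genes were higher and 29.6% lower. The difference between the pairs was not tested.

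Glutathione genes held some of the highest values and some near even. GCLM encodes the modifier subunit of glutamate-cysteine ligase, which makes the first glutathione intermediate from glutamate and cysteine, and its intensity was 543 in glutamine-free and 306 in normal medium in siBRAF cells, 1.77-fold higher. Its 3 probe sets gave 0.83 to 0.86. The catalytic subunit GCLC was at 275 and 248, a difference of 0.15, about the spread between probe sets. SLC7A11, which imports cystine in exchange for glutamate, was at 145 and 85.3, and its 3 probe sets gave 0.43 to 0.86. SLC7A11 is also an ATF4 target, and in siCont cells it had the larger difference of 2.01, while GCLM had 0.18 there.

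Thioredoxin and quinone enzymes followed. TXNRD1, thioredoxin reductase, was at 1217 in glutamine-free and 689 in normal medium. Thioredoxin itself, TXN, had a difference of 0.32, though its 2 probe sets gave -0.12 and 0.32. Sulfiredoxin SRXN1, which repairs oxidised peroxiredoxins, stood at 366 and 276, and peroxiredoxin PRDX1 at 3846 and 3342. These 4 genes thus ranged from 0.20 to 0.82 without glutamine.
The quinone reductase NQO1 was at 2166 in glutamine-free and 1244 in normal medium, 1.74-fold higher, with 3 probe sets at 0.80 to 0.92. It is among the brighter members. Heme oxygenase HMOX1, which opens the heme ring, was at 195 and 106, and the ferritin light chain FTL, which stores the iron, at 8131 and 6943.

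NADPH-producing and detoxifying members ranged from even to 0.59. Malic enzyme ME1 was at 800 in glutamine-free and 538 in normal medium, with 2 probe sets at 0.57 and 0.74. Transketolase TKT (0.25), transaldolase TALDO1 (0.21) and PGD belong to the pentose phosphate pathway. Aldo-keto reductases had differences of 0.59 (AKR1B10), 0.42 (AKR1C3), 0.27 (AKR1C2) and 0.16 (AKR1C1). AKR1C1, AKR1C2 and AKR1C3 are closely related genes, so their probe sets may share signal. In siCont cells they stood at -1.28, -1.49 and -1.44, the opposite side. The transporters ABCC2 and ABCC3 had 0.42 and 0.39, and epoxide hydrolase EPHX1 0.37. The 4 probe sets of ABCC3 gave -0.06 to 0.39.

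The transcripts of the pathway's regulators differed little, as looked up after the values of the list were seen. NFE2L2, which encodes NRF2, was at 951 in glutamine-free and 900 in normal medium, a difference of 0.08, and its 3 probe sets gave 0.04 to 0.45. KEAP1 was at 374 and 332, a difference of 0.17, about the spread between probe sets of a gene. NRF2 is set largely at the level of its protein, which was not measured.

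**Figure D3:**
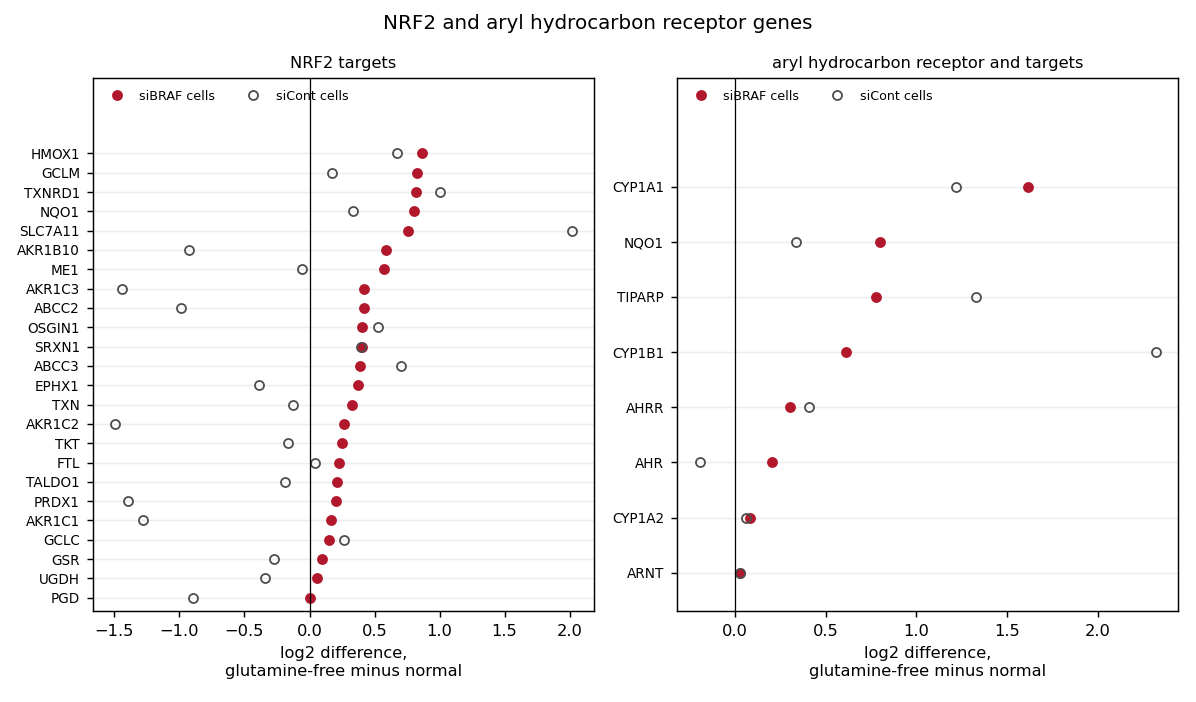
Log2 difference, glutamine-free minus normal medium, for each measured NRF2 target (left) and aryl hydrocarbon receptor gene (right), in siBRAF cells (filled) and siCont cells (open), 1 pair of arrays each. No filled point lies below 0, while 14 of the 24 open points of the NRF2 panel do.

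Aryl hydrocarbon receptor targets were higher in siBRAF cells without glutamine. This receptor is a ligand-activated transcription factor that switches on cytochrome P450 genes. All 8 measured members, of 11 listed, were above 0, with a median of 0.46, and 4 were higher by 0.32 or more (50%, against 4.05% of all genes) and 0 lower. Without shared probe sets the median was 0.30 and 2 of 5 were higher, and without a filter on dim genes the median was 0.25. In siCont cells the 8 genes had a median of 0.37, with 5 higher and 0 lower, where 22% of all genes were higher and 29.6% lower. CYP1A1, its classic target, was at 174 in glutamine-free and 56 in normal medium in siBRAF cells, 3.07-fold higher, and at 87.2 and 36.9 in siCont cells. CYP1A1 has 1 probe set past the filter, so its value has no second reading. CYP1B1 was at 1047 and 685, and its 4 probe sets gave 0.57 to 0.70. TIPARP, which restrains the receptor, was at 857 and 499. The repressor AHRR was at 510 and 413, and AHR (0.20), ARNT (0.03) and CYP1A2 (0.08) were within 0.32 of even. NQO1 is on this list and on that of NRF2, and without it the median of the other 7 genes was 0.30.

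Interferon-stimulated genes were lower without glutamine in siBRAF cells. Of 47 measured members, of 50 listed, 43 were below 0, with a median of -0.23, 20 were lower by 0.32 or more (42.6%, against 4.31% of all genes) and 0 higher. In siCont cells the same genes had a median of -0.50, with 28 lower and 4 higher, where 29.6% of all genes were lower and 22% higher. In siBRAF cells 11 of the 47 were lower at 1.5-fold, against 0.72% of all genes. At 2-fold there were 4 (0.0761% of all genes), IFI27, CXCL10, IFITM1 and IFI44L. Their levels in siBRAF cells without glutamine were above those in siCont cells in either medium for each of these 4 genes. A bulk array cannot tell fewer cells with a transcript from less transcript per cell.

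The chemokine gene CXCL10 was at 55.2 in glutamine-free and 129 in normal medium in siBRAF cells, and at 15.4 and 45 in siCont cells. IFITM1, a membrane protein that blocks virus entry, was at 165 and 379 in siBRAF cells, 2.29-fold lower, and at 30 and 46 in siCont cells. IFI6, which guards the endoplasmic reticulum against viral replication, was at 334 and 572 in siBRAF and at 48.2 and 141 in siCont cells. All 3 thus kept the order of siBRAF above siCont and of normal above glutamine-free medium.
MX1, an antiviral GTPase, was at 74.1 in glutamine-free and 131 in normal medium, and the ubiquitin-like modifier ISG15 at 370 and 552. OAS1 and OAS2, which make the messenger that activates RNase L, were at 52.9 and 88.5, and at 39.6 and 71.6. For OAS1 both probe sets were lower, at -0.73 and -0.69, while for OAS2 the second probe set gave 0.03. XAF1 had 2 probe sets at -1.02 and -0.81. Dim genes of the group, IFI27 (23 and 55.8) and XAF1 (18.9 and 33.9), lie near the array median, where background weighs most.

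The group was not even. The IFIT genes, which bind viral RNA, had differences from near even to the middle of the group: IFIT1 -0.45, IFIT2 -0.11, IFIT3 -0.10 and IFIT5 -0.03. In siCont cells IFIT1 stood at -2.61, IFIT2 at -1.64 and IFIT3 at -1.39. Bright members, IFITM3 at 3144 in glutamine-free and 3517 in normal medium and IFITM2 at 1724 and 1762, were close to even, as were MX2 (0.04), SP100 (0.03) and the kinase EIF2AK2 (0.00). Only TRIM5, at 0.19, was above 0 by more than the spread between probe sets of a gene.

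Regulators of the pathway had a median of -0.02 over 23 measured genes of 28 listed, with 1 higher by 0.32 or more (4.35%, against 4.05% of all genes) and 2 lower (8.70%, against 4.31%). IRF7, which amplifies interferon production, was at 106 in glutamine-free and 156 in normal medium. IRF9, a DNA-binding subunit of the complex that answers to type I interferon, was at 164 and 214. The higher gene was IRF5, at 35.6 and 18.9, and of its 2 probe sets the second gave 0.05. Genes of antigen presentation by MHC class I, which interferon also raises, had a median of 0.01, and 0 of 19 were 0.32 or more apart.

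NF-kB targets and inflammatory cytokines were lower in siBRAF cells. Of 22 measured members, of 28 listed, 18 were below 0, with a median of -0.28, 11 were lower by 0.32 or more (50%, against 4.31% of all genes) and 1 was higher. Without probe sets shared between transcripts the median was -0.17 and 5 of 13 were lower, and with the filter at the 75th percentile 6 of 12 were lower. In siCont cells the same genes had a median of 1.03, with 16 higher by 0.32 or more (22% of all genes) and 2 lower (29.6% of all genes). The difference between the pairs was not tested.

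Chemokines that attract neutrophils were among the lowest members. CXCL8 was at 266 in glutamine-free and 514 in normal medium in siBRAF cells, 1.93-fold lower, with 2 probe sets at -0.96 and -0.95, and at 4071 and 1261 in siCont cells. CXCL1 was at 260 and 456 in siBRAF, and at 1503 and 1036 in siCont cells. CXCL2 was at 67 and 116 in siBRAF, and at 531 and 186 in siCont cells. All 3 were thus lower without glutamine in siBRAF cells and higher without it in siCont cells. The values of CXCL8 and CXCL2 come from probe sets shared between transcripts, which may share signal, and that of CXCL1 does not. CXCL3 had a difference of -0.63, and VCAM1 one of -0.86 from intensities of 8.13 and 15.6 near or below the array median. VCAM1 reached that median in normal medium only, so it could pass the filter only as a lower gene. It is counted among the lower members of the list.
Feedback and subunit genes on the list were also below 0. Of those looked up after its values were seen, RELA (0.18), TNIP1 (0.09) and NFKBIE (0.02) were above 0. The inhibitor TNFAIP3 was at 78.4 and 99.2, with 2 probe sets at -0.36 and -0.34. NFKB2 had -0.44, NFKBIA -0.22, RELB -0.17 and NFKB1 -0.12. The adhesion molecule ICAM1 was at 179 and 239, with 3 probe sets at -0.45 to -0.35, and the superoxide dismutase SOD2 at 86.4 and 128. IL6 (-0.15), IL1A (-0.01), LIF (0.04) and CCL2 (-0.04) were within 0.32 of even.
The higher gene was the cytokine IL24, at 226 in glutamine-free and 87.5 in normal medium in siBRAF cells and at 5990 and 157 in siCont cells.

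**Figure D4:**
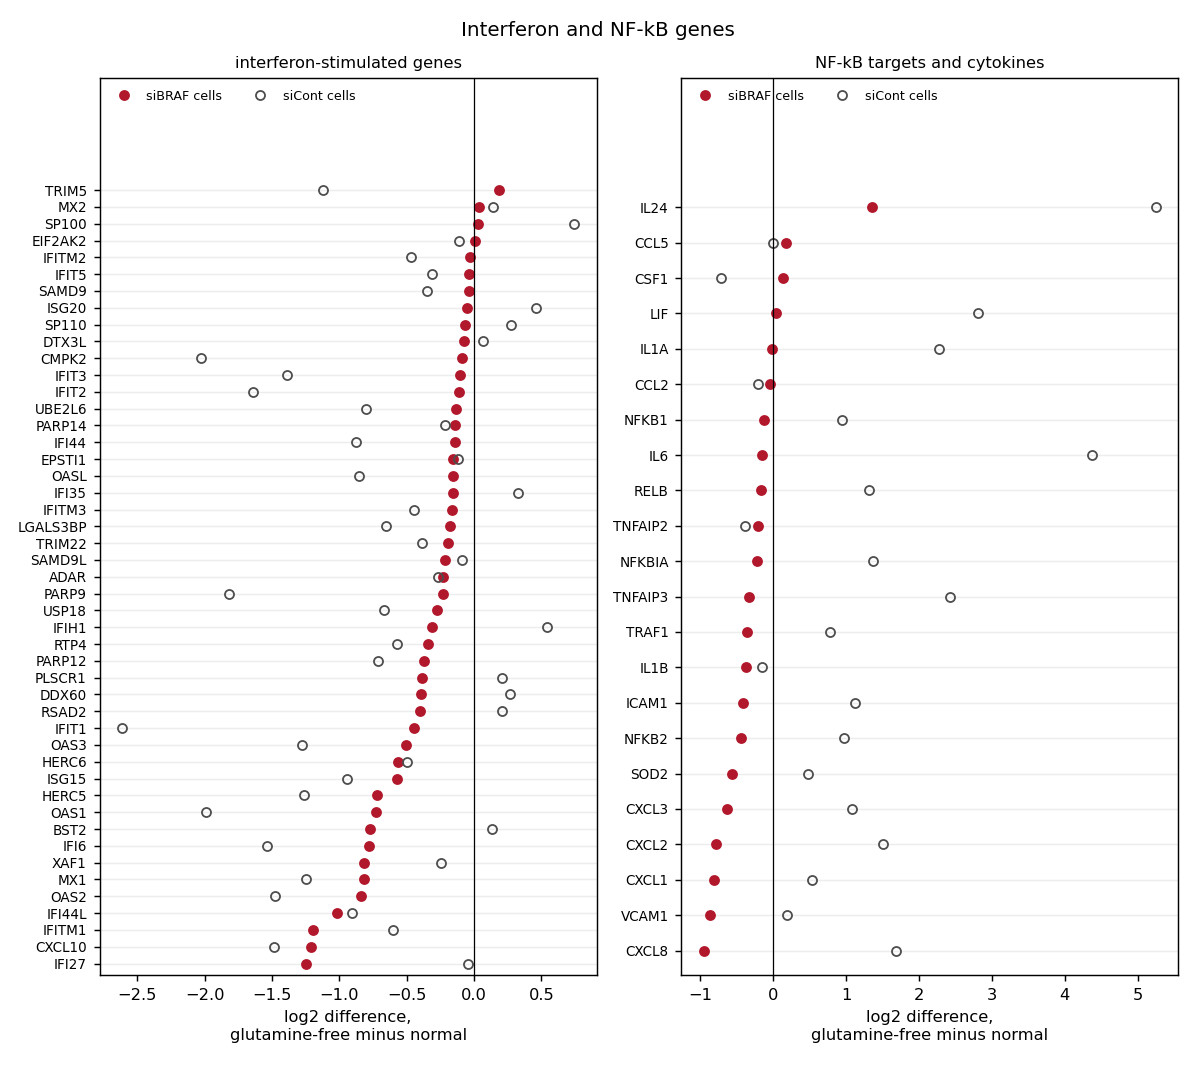
Log2 difference, glutamine-free minus normal medium, for each measured interferon-stimulated gene (left) and NF-kB target (right), in siBRAF cells (filled) and siCont cells (open), 1 pair of arrays each. Most filled points lie below 0 in both panels, with medians of -0.23 and -0.28, while most open points of the NF-kB panel lie above 0.

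**Figure D5:**
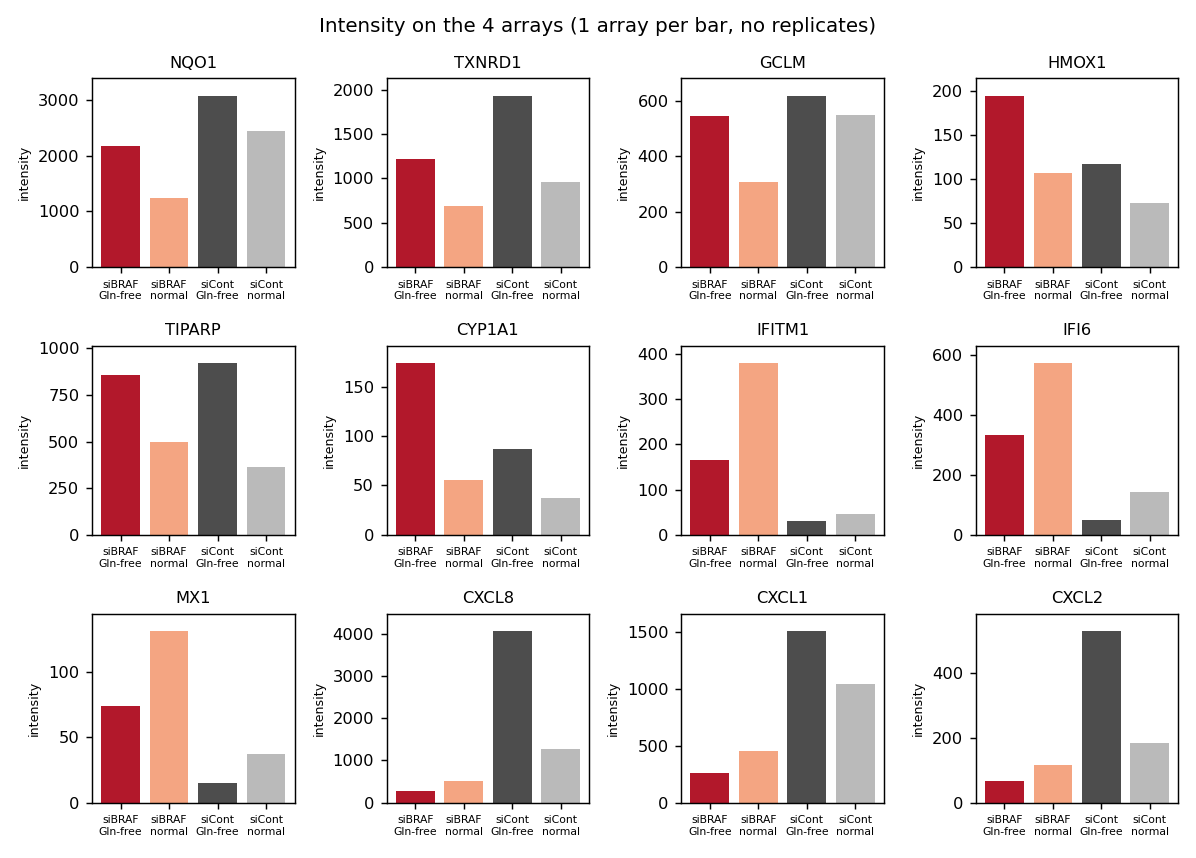
Intensity of 12 genes on the 4 arrays of siBRAF and siCont cells in glutamine-free and normal medium, 1 array per bar. The first 6 panels, genes of NRF2 and of the aryl hydrocarbon receptor, are higher without glutamine in both cell groups, the interferon genes are lower in both, and the chemokine genes CXCL8, CXCL1 and CXCL2 are lower in siBRAF and higher in siCont cells.

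Genes of the ATF4 response were close to even in siBRAF cells. For targets of ATF4 and CHOP the median was 0.04 over 28 measured members, with 3 higher by 0.32 or more (10.7%, against 4.05% of all genes) and 2 lower (7.14%, against 4.31%), and a median of 1.69 in siCont cells. ATF4 was at 1498 in glutamine-free and 1519 in normal medium, and asparagine synthetase ASNS at 117 and 118. DDIT3, which encodes CHOP, was at 143 and 184, and CHAC1, which breaks down glutathione, at 20 and 30.1. The 3 higher genes were SLC7A11, STC2 (45.8 and 33) and the transcription factor ATF3 (950 and 738, 3 probe sets at 0.30 to 0.42). ATF3 thus stood higher in siBRAF cells in either medium than in siCont cells without glutamine, where it was at 551.

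Among amino acid genes, single members stood apart. Serine, one-carbon, proline and asparagine synthesis had a median of 0.02 over 16 genes, with 1 higher by 0.32 or more, the folate enzyme ALDH1L2 at 25 in glutamine-free and 15.7 in normal medium. Amino acid transporters had a median of 0.11 over 21 genes, with 2 higher (9.52%, against 4.05% of all genes) and 2 lower (9.52%, against 4.31%). SLC7A11 and SLC1A4, an exchanger of small neutral amino acids, were higher, and SLC6A15 (-0.41) and SLC7A8 (-0.34) lower. The 4 probe sets of SLC6A15 gave -0.59 to 0.04. SLC1A4 had 4 probe sets past the filter at 0.45 to 0.81, but leaving out shared probe sets gave -0.22. SLC38A1, which imports glutamine, had 0.32, just under the limit, and the glutamine transporter SLC1A5 0.20. The 4 probe sets of SLC38A1 gave 0 to 0.32. Cytosolic aminoacyl-tRNA synthetases had a median of 0.05, and of 17 genes none was 0.32 or more apart.

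Enzymes of glutamine itself differed little. Glutamine synthetase GLUL was at 74.7 in glutamine-free and 65 in normal medium, and its 2 probe sets gave -0.01 and 0.20. Of 15 measured genes of glutamine and glutamate metabolism GCLM alone was 0.32 or more apart. Purine and pyrimidine synthesis, which draws its nitrogen from glutamine, had a median of 0.04 with 0 of 19 genes 0.32 or more apart. TXNIP, which blocks glucose uptake and answers to glucose and glutamine through the factor MondoA, was at 2411 and 2717 in siBRAF and at 257 and 204 in siCont cells. Its relative ARRDC4 was at 187 and 158.5 in siBRAF cells, and 0 of the 8 genes of this list were 0.32 or more apart.

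Cell cycle genes remained near their level in normal medium. The S phase list had a median of 0.08 over 39 genes, with 3 higher by 0.32 or more (7.69%, against 4.05% of all genes), CDC6 (0.51), ORC6 (0.50) and E2F1 (0.39), and 1 lower, CDT1 (-0.49). The mitotic list had a median of 0.01 over 33 genes, with 3 higher (9.09%, against 4.05% of all genes) and 0 lower (4.31% of all genes). These were CDC25C, BUB1 and MKI67, all at intensities of 12.9 to 36.2 in siBRAF cells, and their probe sets disagreed: MKI67 had 4 at -0.49 to 0.36 and BUB1 2 at -0.18 and 0.43. CDC25C was at -0.33 without shared probe sets. With the probe set used it reached the array median in glutamine-free medium only, so it could pass the filter only as a higher gene. In siCont cells the 2 lists had medians of -0.99 and -0.83.

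ERK output and immediate early genes had medians at background but a wider spread. Of 26 immediate early genes 6 were higher by 0.32 or more (23.1%, against 4.05% of all genes) and 2 lower, with a median of 0.01. CCN1, a matrix protein, was at 2205 in glutamine-free and 1593 in normal medium, with both probe sets at 0.47 and 0.51. KLF4 was at 443 and 337, IER5 at 525 and 400, NR4A2 at 47.8 and 33.8 and FOSB at 17.6 and 11, and ATF3 is described above. FOSB reached the array median in glutamine-free medium only, so it could pass the filter only as a higher gene. EGR3 (40.8 and 59.2) and KLF2 (62.4 and 87.2) were lower, and KLF2 was at 0.22 without shared probe sets. EGR1 (-0.24), JUN (-0.10) and MYC (-0.06) were within 0.32 of even, while in siCont cells they stood at 5.14, 3.64 and 3.31. Of 30 ERK output genes 1 was higher (3.33%, against 4.05% of all genes), IL11 (25.7 and 18.7). Lower were 4 (13.3%, against 4.31%), CXCL8, CXCL1, SPRY1 (9.44 and 16.7) and ETV4 (25.7 and 34.6). SPRY1 reached the array median in normal medium only, so it could pass the filter only as a lower gene.

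Large protein complexes had narrow distributions with small positive medians. Proteasome subunits had a median of 0.09, with 24 of 28 above 0 and none 0.32 or more apart. Respiratory chain subunits had 0.05, with 52 of 64 above 0, and mitochondrial ribosomal proteins 0.04, with 49 of 70 above 0. Over all genes 54.1% were above 0, and the median of the brightest group of genes was itself 0.04. With the trend of difference on brightness removed, the medians of proteasome and respiratory chain became 0.05 and 0.01. Cytosolic ribosomal proteins had a median of 0.00 over 52 genes.

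Most other stress and metabolic lists had medians near background as well. ER chaperones had a median of 0.08 and heat shock and chaperonin genes one of 0.08, with SEC24D (0.50), which helps carry cargo out of the endoplasmic reticulum, the highest of both lists. Hypoxia targets had 0.08 over 21 genes, with 2 higher (9.52%, against 4.05% of all genes), EGLN3 (0.53) and the glucose transporter SLC2A1 (0.38). Lower were 2 (9.52%, against 4.31%), PFKFB4 (-0.39) and MXI1 (-0.37). Glycolysis (0.04), the tricarboxylic acid cycle (0.01), cholesterol synthesis (0.01), p53 targets (0.03) and autophagy and lysosome genes (0.01) had 0 to 2 members 0.32 or more apart each. Fatty acid synthesis had -0.13 over 11 genes, with 1 lower (9.09%, against 4.31% of all genes). This was FADS2 at -0.44, which was at 0.10 without shared probe sets. Metallothioneins, which bind zinc and copper, had -0.09 over 9 genes, with 2 lower (22.2%, against 4.31% of all genes). These were MT1X (717 in glutamine-free and 942 in normal medium) and MT1F (330 and 431), and as near-identical copies they may share signal. The second probe set of MT1X gave 0.09.

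Matrix genes went both ways. Of 30 measured genes 3 were higher by 0.32 or more (10%, against 4.05% of all genes) and 4 lower (13.3%, against 4.31%), with a median of -0.06. The proteoglycan LUM was at 388 in glutamine-free and 249 in normal medium in siBRAF cells, and at 12.5 and 51.6 in siCont cells. COL12A1 (0.50) and COL8A1 (0.42) were the other higher genes. COL21A1 was at 97.9 and 153, and COL7A1, COL13A1 and COL16A1 were at -0.45, -0.41 and -0.36. The 3 probe sets of COL13A1 disagreed, at -0.41 to 0.20. POSTN (-0.18) and MGP (-0.20) were within 0.32 of even.

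At least 2-fold apart were 6 higher and 10 lower genes. Higher without glutamine were TAC1, the precursor of substance P (716 in glutamine-free and 231 in normal medium), CYP1A1, the epidermal protein FLG (118 and 44.2), IL24, LRRC15 (284 and 129) and the guanine deaminase GDA (273 and 130). Each had 1 probe set past the filter. The 10 lower genes were CRYBA1 (9.25 and 34.8), the chemokine CXCL14 (71.8 and 173), IFI27, CXCL10, DYNLRB2, IFITM1, the peptide hormone CCK, the Wnt agonist RSPO3, CAPN3 (32.5 and 67.7) and IFI44L. Of these, CRYBA1, DYNLRB2, CCK and RSPO3 were below the array median in glutamine-free medium, where background weighs most. As they passed the filter in normal medium only, they could only come out lower. CAPN3 had 3 probe sets at -1.04 to -0.63. CXCL14 had 2 at -1.28 and -1.26, both shared between transcripts, and leaving such probe sets out gave 0.03.

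Below 2-fold, genes with several probe sets of 1 sign were taken as the next best measured. Among the lower were IGFBP5, which binds insulin-like growth factors (263 in glutamine-free and 504 in normal medium, 6 probe sets at -1.34 to -0.45), SCUBE3 (397 and 662, 2 at -0.74 and -0.71), PDE4B, which degrades cyclic AMP (72.8 and 123, 2 at -0.75 and -0.68), RAB3B (73.4 and 115, 5 at -0.91 to -0.41) and the fatty acid carrier FABP7 (163 and 250, 2 at -0.61). In siCont cells IGFBP5 and FABP7 were also lower, at -3.11 and -2.15. Among the higher were NFATC2, a calcium-regulated transcription factor (709 and 393, 4 probe sets at 0.18 to 0.85), TRIM58 (603 and 320, 2 at 0.45 and 0.91), the ankyrin ANK3 (1363 and 877, 4 at 0.27 to 0.64) and JPH1 (305 and 197, 2 at 0.21 and 0.62). In siCont cells NFATC2 stood at -0.94 and ANK3 at -0.46.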

How the data were processed

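Affymetrix arrays of 8 conditions, 1 per condition, were hybridised. The deposited values are linear intensities per probe set, made by the authors with RMA per the submitters' processing notes (version and annotation not given in the sources used here). Medians were 14.76 to 15.5 on 5 arrays and 36.38 to 36.85 on 3, so levels were compared within the first 5 only. Of 54675 probe sets, 41091 have 1 symbol in the platform annotation, 1801 several and 11721 none, and 62 are controls. A gene was represented by its probe set of highest mean log2 intensity over the 8 arrays. Genes that reached the array median in neither medium in siBRAF cells were left out. A gene that reached it in 1 medium only is nearly bound to come out higher in that medium. Differences are log2(intensity + 1). Computation used Python 3.11.15, pandas 2.3.3, numpy 2.4.6 and statsmodels 0.14.6, tested on simulated data. With 1 array per condition there are no tests, and the number of arrays limits the precision. The members and the 39 gene lists were chosen with earlier results of these data known. Named genes are all those at least 2-fold apart, the next 15 each way with 2 or more probe sets of 1 sign, up to 5 per list with further members where the whole list is described, and 8 genes of glutamine supply. Alternatives changed the pseudocount, filter, choice of probe sets and normalization.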

Additional observations from a re-analysis of the deposited data

Results flagged for a closer look

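Several results lay on opposite sides of 0 in the 2 cell groups, each with 1 pair of arrays, and the difference between the pairs was not tested. The median of NRF2 targets was 0.38 in siBRAF cells and -0.15 in siCont cells, and that of NF-kB targets and cytokines -0.28 in siBRAF cells and 1.03 in siCont cells. Among chemokine genes, CXCL8 had -0.95 in siBRAF and 1.69 in siCont cells, CXCL2 had -0.78 and 1.51, and CXCL3 had -0.63 and 1.08. Among genes higher without glutamine in siBRAF cells, NFATC2 had 0.85 in siBRAF and -0.94 in siCont cells, and the epimerase-like gene DSEL 0.82 and -1.47. ELMOD1 had 0.65 and -0.95, and the proteoglycan gene LUM 0.64 and -1.96. These gene values are of 1 probe set each. Over their probe sets in siBRAF cells NFATC2 ranged from 0.18 to 0.85 and DSEL from 0.0036 to 0.82. ELMOD1 ranged from 0.15 to 0.65 and LUM from 0.38 to 0.64.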

How the results depend on the processing

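No paired analysis was possible because each condition has 1 array. Across the alternatives tried the NRF2 median stayed between 0.31 and 0.41 and that of interferon-stimulated genes between -0.27 and -0.19. With a pseudocount of 16, genes higher by 0.32 or more numbered 257 and lower 228, at 1.5-fold 37 and 37, and at 2-fold 4 were lower; the medians were 0.31 for NRF2 and -0.24 for NF-kB targets, of which 7 were lower. Without a filter 894 genes were higher and 934 lower by 0.32 or more, and the medians were 0.25 for aryl hydrocarbon receptor genes and -0.21 for NF-kB targets, of which 2 were higher. With the filter at the 75th percentile there were 244 higher and 155 lower, at 1.5-fold 37 and 35, and at 2-fold 4 lower; the interferon median was -0.19, the receptor median 0.61, and 6 NF-kB targets were lower. With the mean of all probe sets, 314 were higher and 350 lower, 59 were lower at 1.5-fold and the NRF2 median was 0.32. Without probe sets shared between transcripts, 6 genes were lower at 2-fold. The interferon median was then -0.27, the receptor median 0.30 with 2 genes higher, and the NF-kB median -0.17 with 5 lower. Differences of the opposite sign were then found for CXCL14 (0.034), RGS16 (0.088), IL21R (-0.049), SLC1A4 (-0.22), FADS2 (0.10), KLF2 (0.22) and CDC25C (-0.33). Quantile normalization gave an NF-kB median of -0.31. Among alternatives chosen after seeing the data, genes above the median on both arrays gave 59 lower at 1.5-fold and 6 at 2-fold, and members on no other list a receptor median of 0.30. The causes were not tested.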

Other observations

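Some genes outside the lists were looked up after the values were seen, so they support nothing on their own. PIR, an iron-binding nuclear protein, was at 548 in glutamine-free and 294 in normal medium in siBRAF cells, and TRIM16 at 761 and 414. In siCont cells PIR had a difference of -0.24 and TRIM16 one of 0.56. Other genes looked up for NRF2 were closer to even in siBRAF cells, with 0.30 for GSTM3, 0.29 for ABCB6, 0.14 for CBR1, 0.12 for MAFG and -0.19 for TRIM16L. On the NF-kB side LCN2 had 0.02, NFKBIE 0.02, TNIP1 0.09 and IRAK2 -0.05, and NFKBIZ -0.25. The acute-phase inhibitor SERPINA3 was at 181 in glutamine-free and 326 in normal medium in siBRAF cells, a difference of -0.84, and complement C3 at 540 and 691. TCN1, which carries vitamin B12, was at 370 and 610. The small chaperone CRYAB was at 209 and 124, a difference of 0.75. RELA, a subunit of NF-kB, was at 140 and 123, and its 2 probe sets gave -0.01 and 0.18.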
